A study of Mus musculus with 2 samples.

Results

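The TALE homeodomain proteins are transcription factors that bind DNA together with Hox proteins, and 9 of their genes were followed here: Meis1, Meis2, Meis3, Pbx2, Pbx3, Pbx4, Pknox1, Pknox2 and Tgif1. They were chosen by name and looked up by their RefSeq identifiers among the 16826 named genes of the deposited table, and all 9 were found. The RNA came from immortalised MEFs (mouse embryonic fibroblasts) of strain C57BL/6, in 2 cultures, 1 of genotype p65+/+ (wild-type) and 1 of genotype p65-/- (p65-null). p65 is a subunit of the transcription factor NF-kB, and the study asked how gene expression differs with and without it. The labels name no stimulus, no passage and no way of immortalisation, and each genotype is 1 library, so differences are given without p-values and could not be checked in replicates. Genotype cannot be told apart from any other difference between the 2 cultures.

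Hox proteins alone recognise short and similar DNA sites, and their choice of target depends on partners. Pbx proteins bind next to Hox proteins on DNA, and Meis and Prep proteins (Prep1 and Prep2 are encoded by Pknox1 and Pknox2) bind Pbx, help to keep it in the nucleus and bind DNA themselves. In embryonic limbs Meis1 and Meis2 mark the proximal part and are held back distally. Tgif1 is a TALE protein of another kind, a repressor that acts on Smad and retinoic acid target genes.

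The class is named for extra residues in the loop between the first and second helix of the homeodomain. The stretch of coding DNA around that loop is shown for 7 of the 9 genes, since it shows how alike the genes are whose levels are compared below. Each stretch is 69 bases from the GENCODE M21 transcript matched to the deposited one, 5′ to 3′, and the capitals are the 9 bases of the loop's proline-tyrosine-proline codons (alanine-tyrosine-proline in Tgif1).
Meis1: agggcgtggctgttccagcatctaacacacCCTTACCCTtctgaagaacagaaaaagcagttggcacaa
Meis2: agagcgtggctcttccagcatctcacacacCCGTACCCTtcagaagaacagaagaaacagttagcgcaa
Meis3: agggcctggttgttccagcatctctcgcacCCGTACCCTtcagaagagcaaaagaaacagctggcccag
Pknox1: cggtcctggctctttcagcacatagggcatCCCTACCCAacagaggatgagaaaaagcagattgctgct
Pknox2: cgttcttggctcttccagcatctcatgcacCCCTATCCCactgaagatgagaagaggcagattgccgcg
Pbx2: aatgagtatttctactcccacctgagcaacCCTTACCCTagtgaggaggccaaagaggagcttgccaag
Tgif1: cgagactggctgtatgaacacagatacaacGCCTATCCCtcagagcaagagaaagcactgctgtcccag

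Over the whole homeobox of 189 bases, the Meis genes were 82.0% to 84.7% identical to each other, and Pknox1 and Pknox2 were 78.3% identical. Meis and Prep genes shared 65.1% to 71.4% of the bases, and Meis and Pbx genes 44.4% to 53.4%. The sequences thus group Meis with Prep and set Pbx and Tgif1 apart. Over the full transcripts, the longest run of identical bases between any of the 36 pairs of the 9 genes was 32 bases, between Meis1 and Meis2. The sources used here do not say how reads of similar genes were assigned.

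Depth was 20794476 fragments for wild-type and 15441394 for p65-null, recovered from the deposited scaled values. Rela, which encodes p65, stood at 93.8 normalised CPM (fragment counts scaled to a common library size) with p65 and 13.6 in the p65-null culture, 6.91-fold lower (5.96 to 8.03). Intervals of a gene's ratio between the libraries are exact 95% Clopper-Pearson intervals, and those of levels within a library are exact 95% Poisson intervals. Intervals throughout cover counting error in these 2 libraries only. All 10 fibroblast markers looked up were above 1 CPM in both libraries, with summed levels of 12552 and 25647 CPM, although Thy1 was 8.60-fold lower and S100a4 12.5-fold higher without p65. Of the marker lists of other cell types, the immune list summed to 3.67 CPM (wild-type) and 5.30 CPM (p65-null), with Ptprc at 0 in the latter, and the endothelial list to 3.52 and 2.26. The epithelial list summed to 17.5 and 53.3 CPM, nearly all from Krt19, with Epcam, Cdh1, Krt5 and Krt18 at 0 in the wild-type library. The neural list, carried by Tubb3, summed to 79.9 and 28.1 CPM, and the skeletal muscle list to 0.293 and 1.13. Their part in the results below was not tested.

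Among the 9 TALE genes followed here, only Pknox2 was more than 2-fold apart between the cultures. Meis1, Meis3, Pknox1 and Tgif1 were 1.60- to 1.70-fold apart. A gene was taken as measured where its CPM averaged 1 or more across the libraries, which held for 8 of the 9 and not for Pbx4. Of the 8, 1 was 2-fold apart either way (26% of the 12133 measured genes were), namely 1 higher without p65 (12.2%) and 0 lower (13.8%). Its whole counting interval lay past 2-fold, as for 17.1% of all measured genes. Differences of 1.5-fold or more were seen for 5 of the 8, against 47.3% of all measured genes. The counting interval left out equal levels for 7 of the 8, against 79.3% of all measured genes. The median log2 ratio (p65-null over wild-type) was -0.22 for the 8 genes and -0.03 for all measured genes, while the mean of the 8 was 0.04.

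**Figure D1:**
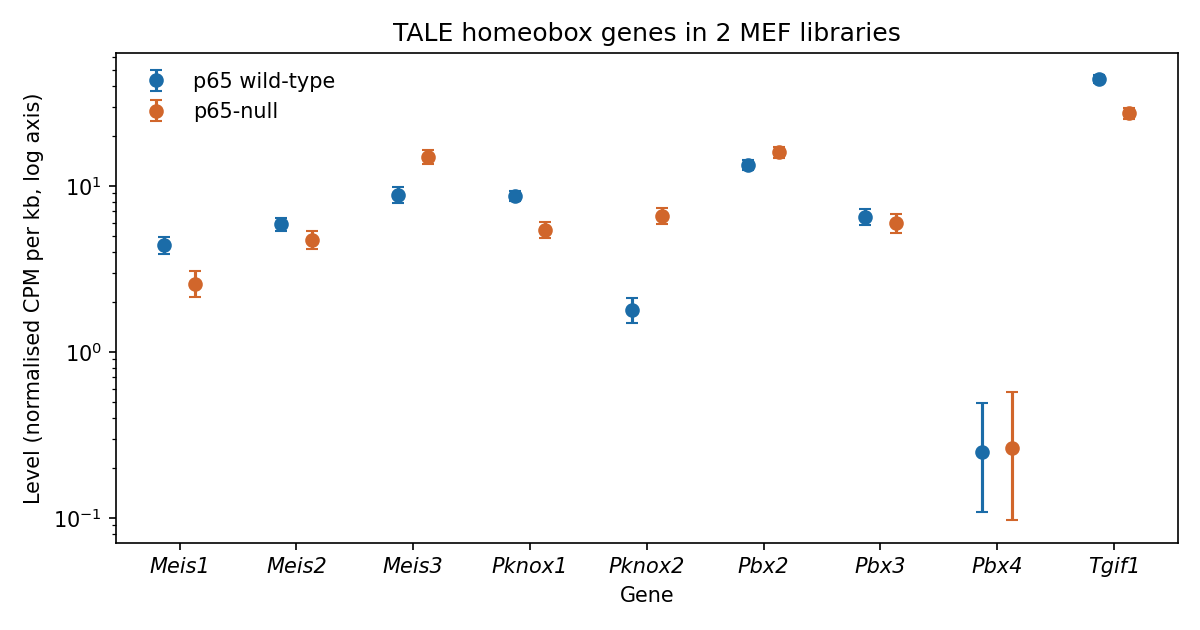
Level of each of the 9 TALE genes (y axis, normalised CPM per kb of transcript, log axis) in the wild-type (blue) and the p65-null library (orange), with 1 library per genotype and 95% counting intervals as bars. Tgif1 has the highest and Pbx4 the lowest level in both libraries. By point value Pknox2 ranks 8 of 9 in wild-type and 4 of 9 in p65-null cells, where its interval overlaps that of Pbx3.

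Levels of different genes were compared per kb of transcript, as plotted by gene and library. In the wild-type library Tgif1 came first at 44.0 normalised CPM per kb, followed by Pbx2 at 13.3, Meis3 at 8.81, Pknox1 at 8.66, Pbx3 at 6.49, Meis2 at 5.86, Meis1 at 4.37, Pknox2 at 1.79 and Pbx4 at 0.251. The counting intervals of Meis3 and Pknox1 overlapped, as did those of Pbx3 and Meis2, so these neighbours cannot be ordered. In the p65-null library the order was Tgif1 at 27.3, Pbx2 at 15.9, Meis3 at 14.9, Pknox2 at 6.59, Pbx3 at 5.95, Pknox1 at 5.40, Meis2 at 4.72, Meis1 at 2.57 and Pbx4 at 0.263. Here Pbx2 and Meis3 overlapped, and so did each neighbouring pair from Pknox2 down to Meis2. The first 3 places and the last were held by the same genes in both libraries.

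**Figure D2:**
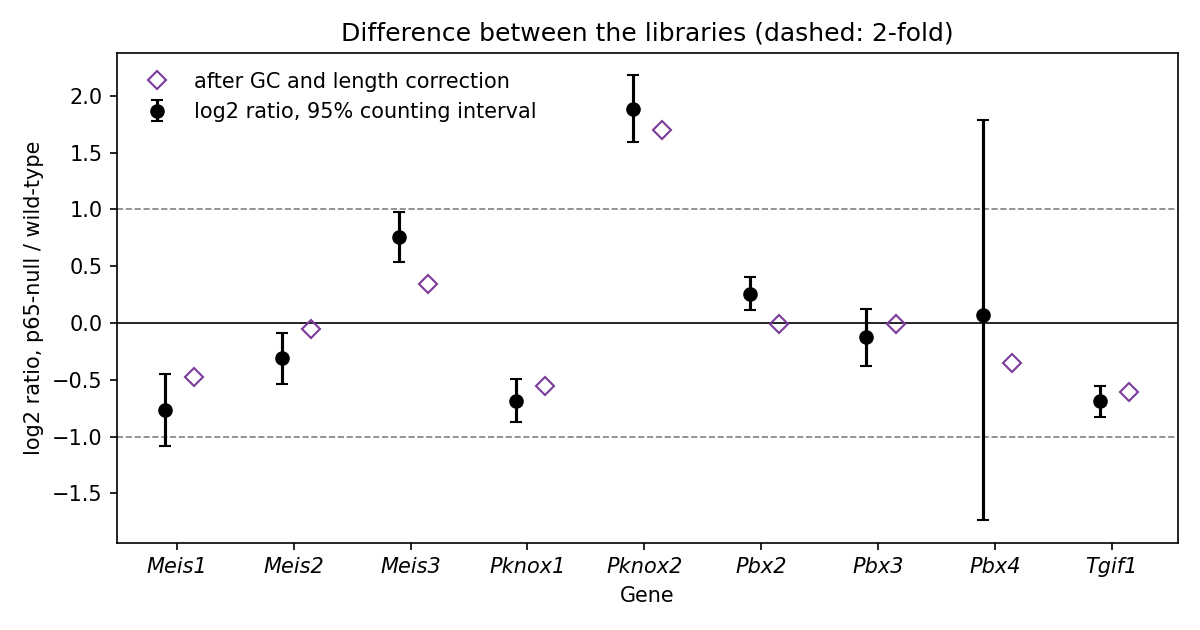
Log2 ratio of p65-null over wild-type for each TALE gene (y axis), with its 95% counting interval (black), and the ratio after a correction for the GC content and length of the transcripts (open diamonds). Only Pknox2 lies past the dashed 2-fold lines, at 1.88, and the correction moves Pbx2 from 0.26 to -0.01.

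Prep2 and Prep1 lay on opposite sides. Pknox2 (transcript NM_001029838, chromosome 9, 36890979 to 37147342 in GRCm38, 13 exons) had 133 wild-type and 350 p65-null fragments. Its level was 6.50 normalised CPM against 23.9 without p65, 3.68-fold higher (3.01 to 4.53), with a log2 ratio of 1.88 (1.59 to 2.18). Of all measured genes, 9.04% had a larger log2 ratio in size. Pknox1, the gene of the widely expressed Prep1, is listed under NR_027493, a non-coding transcript of the gene (chromosome 17, 31564722 to 31607693). It had 753.5 wild-type fragments (36.8 normalised CPM) and 335.5 p65-null fragments (22.9), 1.60-fold lower (1.41 to 1.83). An antisense gene covers 155 bases (2.24%) of its exons over all annotated transcripts. Counts ending in 0.5 arise because 1 fragment was taken as 2 steps of the deposited scale, which the values do not settle. Ratios do not depend on that choice, whereas the widths of the intervals and the bounds for genes at 0 do.

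Because of these opposite differences, the ratio of the 2 Prep genes shifted. Per kb, Pknox2 stood at 0.207 times the level of Pknox1 in wild-type cells and at 1.22 times in p65-null cells, a 5.91-fold change of the ratio (exact conditional interval 4.63 to 7.55). A ratio of genes within a library does not depend on library scaling, and the change was 4.77-fold once GC content and length were corrected for. The summed level of both genes was 10.5 normalised CPM per kb with p65 and 11.99 without.

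The Meis genes were also divided. Meis1 (transcript NM_001193271, chromosome 11, 18880428 to 19019651), a leukaemia-associated partner of Hox and Pbx, had 285.5 wild-type fragments (13.96 normalised CPM) and 120 p65-null fragments (8.21). It was 1.70-fold lower (1.37 to 2.12), with a log2 ratio of -0.77. Over all its annotated transcripts, its exons share 1029 bases (9.77%) with Gm37818 on the same strand and 896 bases (8.51%) with the antisense gene Gm16140. The overlap with the counted transcript alone was not computed. Since strand use is not given, reads of these genes could not be told apart from those of Meis1. Meis2 (NM_001159567, chromosome 2, 115861264 to 116067537) had 445.5 fragments (21.8 CPM) and 256.5 (17.5 CPM), and was 1.24-fold lower (1.06 to 1.45). Meis3 (NM_001302472, chromosome 7, 16174012 to 16186510), known for its part in hindbrain patterning, lay on the other side. It had 312 wild-type fragments (15.3 CPM) and 377 p65-null fragments (25.8 CPM), 1.69-fold higher (1.45 to 1.97).

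Of 3 ratios within the Meis genes, that of Meis3 to Meis1 changed most, from 2.02 per kb in wild-type to 5.80 in p65-null cells, or 2.87-fold (2.20 to 3.77). Meis3 to Meis2 went from 1.504 to 3.16, or 2.099-fold (1.69 to 2.62), and Meis2 to Meis1 from 1.34 to 1.84, or 1.37-fold (1.04 to 1.80). After the GC and length correction these changes were 1.77-, 1.32- and 1.34-fold, so the shift towards Meis3 was smaller with it. Without that correction, Meis3 made up 46.3% of the summed Meis level per kb in wild-type and 67.2% in p65-null cells. The sum itself was 19.0 and 22.2 normalised CPM per kb, 0.22 on the log2 scale, which was -0.20 when libraries were scaled to ribosomal protein genes.

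**Figure D3:**
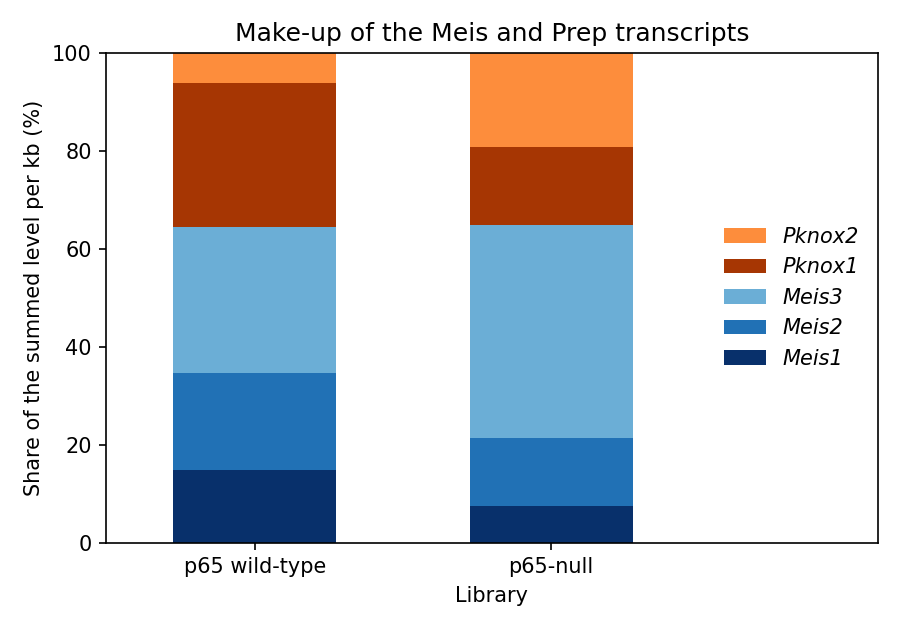
Share of each Meis and Prep gene in their summed level per kb (y axis, percent) in the wild-type and the p65-null library, 1 library each, without the GC and length correction. Meis3 and Pknox2 take 29.9% and 6.07% in the wild-type and 43.6% and 19.3% in the p65-null library, while Pknox1 goes from 29.4% to 15.8%.

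Taking Meis and Prep together as the Pbx-binding class, the plot of shares shows a changed make-up at a nearly level sum. The shares are without the GC and length correction, with which the shift towards Meis3 was smaller, and have no interval. The 5 genes summed to 29.5 normalised CPM per kb with p65 and 34.2 without, a difference of 0.21 in log2, or -0.21 with ribosomal protein scaling. Meis1 took 14.8% of the sum in wild-type and 7.52% in p65-null cells, and Meis2 19.9% and 13.8%.

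The Pbx genes were close to level between the libraries. Pbx2 (NM_017463, chromosome 17, 34592259 to 34597400), a broadly expressed Pbx gene in the MHC region, had 833.5 wild-type fragments (40.7 normalised CPM) and 713 p65-null fragments (48.8). It was 1.20-fold higher (1.08 to 1.32), but slightly lower with ribosomal protein scaling (log2 ratio -0.16) and with the GC and length correction (-0.01). Over all its annotated transcripts, Pbx2 shares 227 bases of exon, 6.24% of its exonic bases, with Gpsm3 on the same strand. The gene Gpsm3 had 20.5 and 13.5 fragments. Pbx3 (NM_016768, chromosome 2, 34171457 to 34372045) had 343.5 fragments (16.8 CPM) and 225 (15.4 CPM), with a log2 ratio of -0.13 (-0.37 to 0.12). A difference of Pbx3 was thus not detectable at this depth.

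Pbx4 (NM_001024954, chromosome 8, 69832476 to 69872292), a gene known mainly from the testis, had 8 wild-type and 6 p65-null fragments, or 0.391 and 0.410 normalised CPM. Its log2 ratio of 0.07 had an interval from -1.74 to 1.79, so that a 2-fold difference either way was not detectable at these counts.

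Tgif1 (NM_009372, chromosome 17, 70844205 to 70853532), which encodes the repressor, was the most abundant of the 9 in both libraries. It had 1467 wild-type fragments (71.7 normalised CPM) and 650 p65-null fragments (44.5), 1.61-fold lower (1.47 to 1.77), a log2 ratio of -0.69 and -0.60 after the GC and length correction. Its close relative Tgif2 had 506.5 and 265.5 fragments and a log2 ratio of -0.45 (-0.67 to -0.23).

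Promoter windows of 250 bases before annotated starts were read from RefSeq (GRCm38.p6) for 6 of the 9 genes, 10 windows in all, 5 of them of Tgif1. Both strands were searched for the NF-kB consensus motif, for the Meis core TGACAG and for the Pbx-Hox site TGATNNAT. Matches were found in 1 window, before an internal start of Tgif1, with 2 of the NF-kB motif and 1 of the Pbx-Hox site. Among all 32851 windows, 5.001% held the NF-kB motif, 7.68% the Pbx-Hox site and 15.9% the Meis core. The part of that window that holds the matches is shown because p65 is the subunit missing from 1 of the cultures, as chr17:70849827-70849982 on the minus strand, from position -192 to -37 relative to the start, with the matches in capitals.
Tgif1 upstream: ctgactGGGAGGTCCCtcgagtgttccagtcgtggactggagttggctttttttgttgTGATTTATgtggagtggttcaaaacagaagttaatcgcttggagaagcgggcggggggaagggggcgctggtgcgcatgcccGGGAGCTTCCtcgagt
The first and last capitals are the NF-kB matches and the middle ones the Pbx-Hox match. A match describes letters only, and whether p65 or a Pbx protein binds there was not measured. The other windows, of Meis1, Meis2, Meis3, Pbx2, Pbx4 and the other starts of Tgif1, held none of the motifs. Annotated exons cover part of most windows: 170 of the 250 bases for Meis2, 160 for Meis3, 133 for Pbx4, 16 for Meis1, 0 for Pbx2 and from 0 to 250 among those of Tgif1, so these are windows before annotated starts and in part transcribed sequence.

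The direction of the TALE genes went with the GC content of their transcripts. The 5 measured genes on the lower side, Meis1, Meis2, Pbx3, Pknox1 and Tgif1, had 46.7% to 49.8% GC, and the 3 on the higher side, Pknox2, Pbx2 and Meis3, had 52.9%, 55.6% and 58.1%. Over all measured genes with a sequence, the median log2 ratio was -0.15 for transcripts of 46% to 50% GC (2565 genes), 0.13 from 50% to 54%, 0.29 from 54% to 58% and 0.35 above. After a loess correction for GC content and length, Pknox2 stood at 1.70, Tgif1 at -0.60, Pknox1 at -0.55, Meis1 at -0.47 and Meis3 at 0.35. Meis2, Pbx3 and Pbx2 then lay at -0.05, -0.01 and -0.01.

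**Figure D4:**
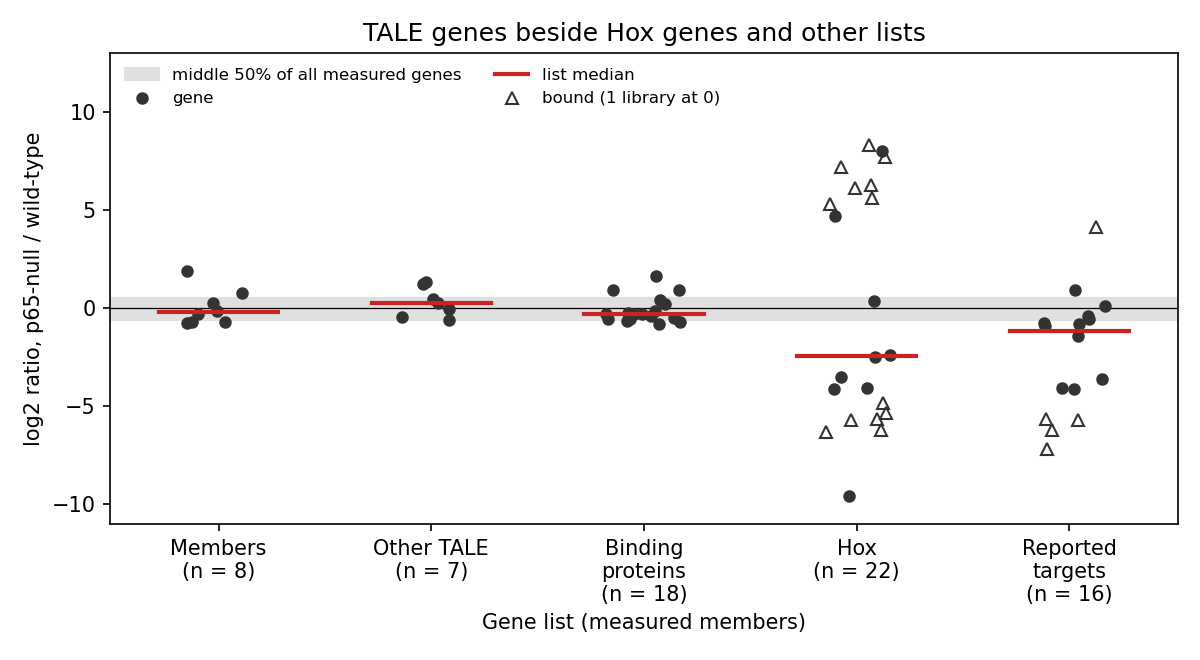
Log2 ratio of p65-null over wild-type (y axis) for the 8 measured TALE genes and 4 other lists, with 1 point per gene. Triangles (bound in the key) are ratios where 1 library had no fragment and was set to 3 fragments. Red lines are the medians, and the grey band is the middle 50% of all measured genes. The TALE genes lie between -0.77 and 1.88, whereas the 22 Hox genes run from -9.60 to 8.31.

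The Hox genes, whose products these proteins accompany, spanned a wider range of ratios than the TALE genes in the same libraries. Of 39 Hox genes looked up, 29 were found and 22 were measured; without p65, 9 of these were higher by 4-fold or more and 12 lower. None of the 8 measured TALE genes was 4-fold apart, against 7.94% of all measured genes. Hoxa11, a gene of the forearm segment of the limb that overlaps an antisense gene, had 0 wild-type and 680 p65-null fragments. It was at least 257-fold higher, and Hoxd13 and Hoxd11 were at least 168- and 117-fold higher. Hoxb9 had 1083 wild-type fragments and 1 p65-null fragment, a log2 ratio of -9.60 (-14.90 to -7.11). Hoxb7 and Hoxb2 were at least 65.1- and 59.8-fold lower. Where a library had 0 fragments, the bound given is the end of the counting interval nearest equal levels. Plotted ratios, medians and counts past a fold set such a library to 3 fragments.

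Of the other TALE homeobox genes, 7 of 9 looked up were found and measured, with 2 higher by 2-fold or more without p65 and 0 lower, beside 12.2% and 13.8% of all measured genes. The median log2 ratio was 0.25, or -0.17 with ribosomal protein scaling. Irx1, an Iroquois gene, had 709 and 1174 fragments and was 2.32-fold higher (2.11 to 2.55), and Irx3 had 52 and 92.5 and was 2.49-fold higher (1.75 to 3.57). After the GC and length correction their log2 ratios were 0.80 and 0.93, both under 2-fold. Mkx, a tendon-associated TALE gene, was at -0.63 and at -0.01 after that correction.

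Proteins that bind TALE factors or work in their complexes mostly lay within 2-fold. Of 18 measured genes 17 lay within 2-fold, as did 8981 of all 12133 measured genes. Of the 18, 1 was higher (12.2% of all measured genes were) and 0 were lower (13.8%). The median log2 ratio was -0.30. Myh10, which encodes a non-muscle myosin reported to bind Pbx, had 9148.5 and 20001 fragments and was 3.06-fold higher (2.98 to 3.14). Pbxip1, whose product keeps Pbx from binding DNA, was at 0.90, and Mybbp1a, which encodes a binding partner of Prep1, at -0.64. Among the corepressor genes, Hdac2 stood at -0.79 and Ctbp1 at -0.56.

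A list of genes taken as targets of Pbx, Meis or Prep was drawn up from general knowledge and not checked against the literature. Like the other lists, it was chosen with earlier results of these data known, so its counts describe these libraries and test nothing. Of its 16 measured genes, 8 were at least 2-fold lower without p65 (13.8% of all measured genes were) and 1 higher (12.2%), with a median log2 ratio of -1.15. Of the 8, 5 were Hox genes, and without Hox genes 3 of 11 were lower and 1 higher, with a median of -0.75. Those 3 were Cdkn2b, a cell cycle inhibitor gene, at least 118-fold lower, the limb growth factor gene Fgf10 and the transcription factor gene Foxc1. Fgf10 was 12-fold lower (7.43 to 20.7), with a log2 ratio of -3.59, or -2.68 with the GC and length correction. Foxc1 was 2.65-fold lower (2.36 to 2.99). The higher one was the limb factor gene Hand2, at least 13.7-fold. Cyclin D1 (Ccnd1), also on this list, had a log2 ratio of -0.90. Hif1a had one of -0.55, which was 0.38 with the GC and length correction.

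The last list held limb and retinoic acid genes, since retinoic acid is known to induce Meis genes and Tgif1 acts on its receptors. It too was chosen with earlier results known, and it shares Hox genes, Rxra and Fgf10 with the lists above. Of 15 measured genes, 7 were higher by 2-fold or more without p65 and 2 lower, beside 12.2% and 13.8% of all measured genes. The median log2 ratio was 0.94, the mean was 2.80, and the median was 3.34 over the genes of at least 5 CPM. Of the 7 higher ones 3 were Hox genes. The others were Tbx5, a forelimb factor gene, at least 97.0-fold higher, Msx1, and the retinoic acid-binding protein genes Crabp1 and Crabp2. Crabp1 was 22.1-fold higher (15.1 to 33.6) and Crabp2 10.1-fold (7.37 to 14.3). The lower ones were Fgf10 and Rarb, a retinoic acid receptor gene, with 53 and 4.5 fragments and an 8.42-fold difference (3.25 to 29.1). Cyp26b1, the enzyme gene that clears retinoic acid in the distal limb, had a log2 ratio of 0.62 (0.44 to 0.80), and Shox2, a gene of the proximal limb, of 0.01. Aldh1a2, which makes retinoic acid, had 1 wild-type and 0 p65-null fragments.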

How the data were processed

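The deposited table gives 1 value per RefSeq transcript and library. Without roles, HOMER, edgeR, STAR 2.4, bcl2fastq 2.16 and the build mm10 (GRCm38) are named in the submitters' processing notes. The sources used here do not give the counting rule, strand use or annotation release. Although named as raw counts, the deposited values are a scaled signal: both columns sum to nearly the same total (18117934 and 18117930). Values were whole multiples of 1 step per column (0.436 and 0.587), for 100% of the values up to 100 units within 0.0055. Among the lowest multiples, the only ones checked for this, even ones prevailed (72.8% and 75.7%). So 1 fragment was taken as 2 steps, an assumption that sets the width of every counting interval. The design had assumed raw counts; the recovered fragments were used instead. Transcripts were matched to symbols through RefSeq (16743) and GENCODE M21 (83), and 55 without a symbol were left out. Libraries were scaled by TMM in edgeR 4.0.16 (R 4.3.3; factors 1.02 and 0.985). No count test was run, since a single library per genotype gives no residual spread. Transcript lengths and GC content came from GENCODE M21, for 99.6% of measured genes, and the loess span was 0.3. The ratio step was tested on simulated counts. DESeq2 1.42.0 size factors, other scalings, other minimums and a prior count of 2 were alternatives. The members and gene lists were chosen with earlier results of these data known. Named were all 9 members and, per list, up to 3 genes each way past 2-fold, ranked by the interval end nearest 0. Other genes of the lists, and the pairs whose ratios are given, were named after their values were seen. In these bulk samples fewer cells of a type and less RNA per cell cannot be told apart.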

Additional observations from a re-analysis of the deposited data

How the results depend on the processing

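No result has a test, and no paired analysis was possible because each genotype has 1 library. Of the members, Pknox2 stayed at least 2-fold higher under all alternatives run. With ribosomal protein scaling and with the GC and length correction, direction turned for Pbx2 (-0.16 and -0.0088) and for Pbx4 (-0.35 with each), whose interval spans equal levels. Ribosomal protein scaling moved the median log2 ratio of all measured genes by -0.43 and upper quartile scaling by 0.12. With ribosomal protein scaling the log2 ratios were -1.19 for Meis1, -0.73 for Meis2, 0.34 for Meis3, -0.55 for Pbx3, -1.10 for Pknox1, 1.46 for Pknox2 and -1.11 for Tgif1, so that 3 members were at least 2-fold lower, as were 25.4% of all measured genes under that scaling. The same scaling left 0 other TALE genes at least 2-fold higher and 1 lower, and 3 genes of binding proteins lower (median -0.72). The GC and length correction put Meis2 at -0.054 and Meis3 at 0.35 and left 0 other TALE genes at least 2-fold higher. Upper quartile scaling gave 3 genes of binding proteins and 2 listed targets at least 2-fold higher. With no expression minimum 2 listed targets were higher. With a minimum of 5 CPM, 0 were, along with 1 other TALE gene higher, 7 Hox genes lower and 1 limb or retinoic acid gene lower; fewer genes enter there. Of the genes at least 2-fold apart, 47.0% were higher in the p65-null library, against 55.1% with upper quartile, 22.4% with ribosomal protein scaling and 60.0% once GC content and length were corrected for. The cause of these shifts was not tested. Depth limits Pbx4, with 8 and 6 fragments.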
